A study of Homo sapiens with 8 samples.

Results

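The genes of the Notch pathway described here were 10 of 19970 protein-coding genes: the receptor genes NOTCH1, NOTCH2, NOTCH3 and NOTCH4, the ligand genes JAG1, JAG2, DLL1 and DLL4, and the target genes HES1 and HEY1. They were chosen by name, and each was given the acetylation peaks touching its RefSeq gene span plus 50 kb on either side. That gave 52 of the 42552 peaks of ARID1A knockout cells and 59 of the 39797 peaks of control cells on chromosomes 1 to 22 and X.

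Notch receptors are single-pass membrane proteins that are cut by ADAM proteases and then by gamma-secretase when a Jagged or Delta-like ligand on a neighbouring cell binds them. The freed intracellular domain enters the nucleus, joins the DNA-binding protein RBPJ and a Mastermind coactivator, and switches on targets such as the HES and HEY repressors. The pathway is known in breast cancer for its part in cell fate, and JAG1 in particular has been studied in triple-negative tumours.

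The cells, of the triple-negative breast cancer line MDA-MB-231, were either ARID1A knockout, lacking a SWI/SNF chromatin remodeller subunit, or control. Acetylation of lysine 27 on histone H3 (H3K27ac), found at promoters and enhancers in use, was measured by chromatin immunoprecipitation after micrococcal nuclease digestion, in 2 knockout and 2 control immunoprecipitates, beside 2 knockout and 2 control inputs. The labels said neither how the gene was knocked out nor whether the cells were a clone or a pool, and the extraction protocol named a different antibody (H3K4me3) from the sample characteristics (H3K27ac), so the mark is called acetylation after the titles and characteristics. A single peak list existed per genotype, so every value is that of a list without replicates, genotypes were not tested against each other, and differences are between these lists.

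Peaks at marker genes were set beside the label of the cell type, and they do not identify the line by themselves. All 5 genes taken as markers of mesenchymal-like triple-negative cells (VIM, CD44, AXL, CAV1 and EGFR) had a peak at the start in the knockout list and in the control list. The oestrogen and progesterone receptor genes ESR1 and PGR had none in either list, and the 5 blood, endothelial and hepatocyte markers had none. For CD3E, PECAM1 and CDH5 among these markers the start was not known, and both gene ends were looked at. The luminal factor genes GATA3 and FOXA1 had a peak in each list, with pileups of 23.5 and 17.5 in knockout cells and 18.1 and 21.6 in control cells. Pileup is the authors' coverage signal for a peak. Its median was 32.0 in the knockout list and 22.7 in the control list, and the depth of the libraries was not given in the sources used here. Pileups are therefore read within a list, beside the percentile of the peak in that list, and neither measure can establish a change between the genotypes.

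Acetylation at these genes was largely common to both genotypes. A peak was called shared if it overlapped a peak of the other list by at least 1 bp, and genotype-only otherwise. Of the 52 knockout peaks, 46 were shared and 6 were knockout-only, a share of 11.5% (95% exact binomial interval 4.35 to 23.4), against 22.4% of all knockout peaks. Of the 59 control peaks, 47 were shared and 12 were control-only, a share of 20.3% (11 to 32.8), against 18% of all control peaks. Both intervals, which cover counting error only, contained the share of the whole list. Peaks within 50 kb of any protein-coding gene span gave 19.8% knockout-only and 17.3% control-only. At this number of peaks the members' shares could not be told from the background of either list.

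**Figure D1:**
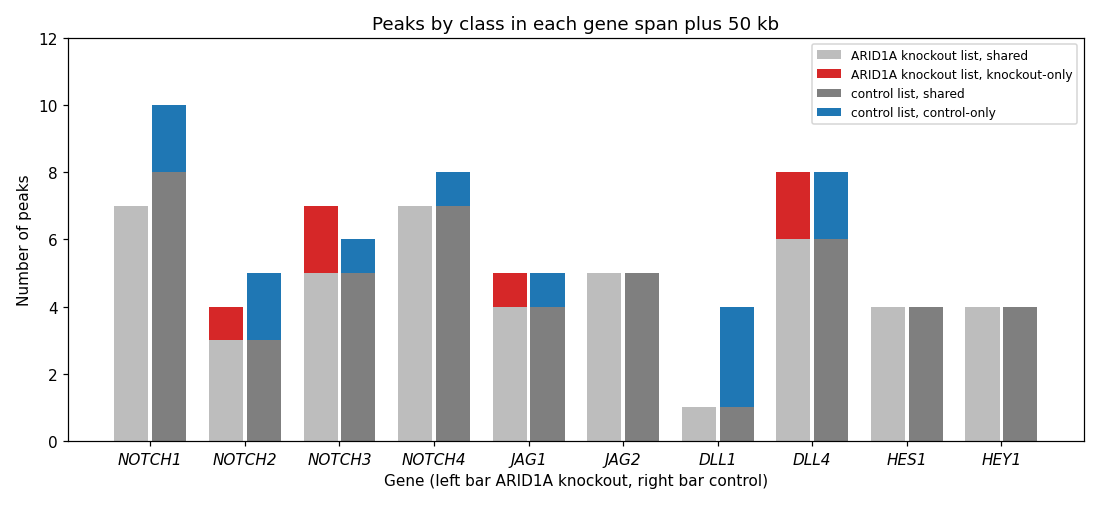
Number of H3K27ac peaks per gene in the gene span plus 50 kb, with the ARID1A knockout list as the left bar and the control list as the right bar, coloured by class. HES1, HEY1 and JAG2 had no genotype-only peak, and DLL1 had 3 control-only peaks beside 1 shared peak in each list.

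The genotype-only peaks were weak peaks. The 6 knockout-only peaks had a median pileup of 12.2 (9.31 to 33.6), against 64.2 for the 46 shared knockout peaks. The 12 control-only peaks had a median pileup of 12.3 (8.33 to 20.2), against 45.9 for the 47 shared control peaks. The same held over the whole lists, where genotype-only and shared peaks had medians of 16.1 and 43.4 in the knockout list and 11.1 and 28.3 in the control list. Among member peaks in the upper 50% of their list by pileup, 1 of 35 knockout peaks was knockout-only and 0 of 32 control peaks were control-only, against 3.16% and 1.51% over the lists. In the lower 50% the counts were 5 of 17 knockout peaks and 12 of 27 control peaks, against 41.6% and 34.5%. Genotype-only peaks were also short, with median lengths of 446 bp for knockout-only and 743 bp for control-only peaks, against 2055 bp and 1984 bp for shared peaks of the knockout and control lists. This too held over the whole lists. Genotype-only and shared peaks there had median lengths of 765 bp and 1826 bp in the knockout list and 673 bp and 1776 bp in the control list.

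**Figure D2:**
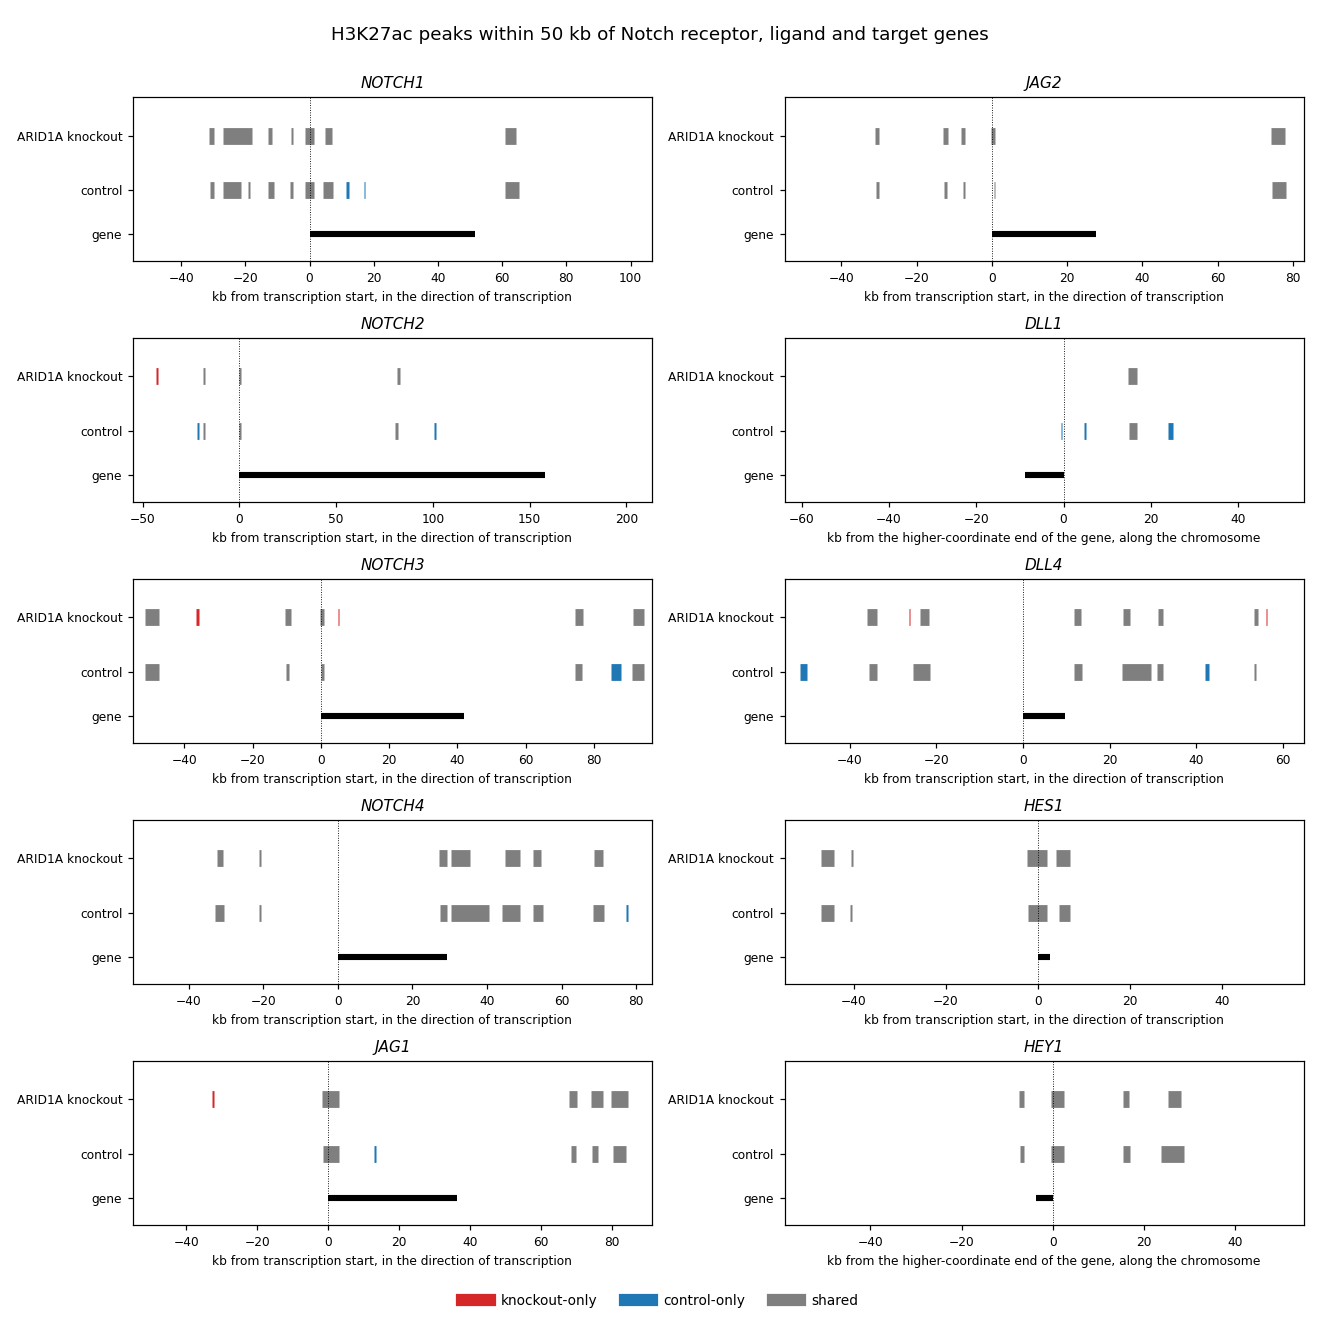
Peaks along each gene span plus 50 kb, as distance in kb from the transcription start in the direction of transcription, or for DLL1 and HEY1 from the gene end with the higher coordinate. In each panel the ARID1A knockout peaks stand above the control peaks and the gene span is the black bar. The grey shared peaks overlap between the rows, some over part of their length only. The coloured genotype-only peaks lie away from the start except for 1 control-only peak at DLL1.

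At the transcription starts the genes fell into the same sets in both genotypes apart from DLL1. Within 1 kb of the start, NOTCH1, NOTCH2, NOTCH3, JAG1, JAG2 and HES1 had a peak in both lists, and NOTCH4 and DLL4 had one in neither. The table of starts held no entry for DLL1 and HEY1, for which both ends of the gene were looked at. HEY1 had a peak at the end with the higher coordinate in both lists and DLL1 had one in the control list alone. Among the 15811 protein-coding genes with a known start, 61.9% had a start peak in both lists, 1.26% in the knockout list alone, 1.49% in the control list alone and 35.3% in neither.

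Start peaks differed widely in pileup among the genes of each list. In knockout cells JAG1 came first with 171, followed by NOTCH1 with 129, HES1 with 91.2, NOTCH2 with 76.7, HEY1 with 57.2, NOTCH3 with 25.7 and JAG2 with 13.9. In control cells NOTCH1 came first with 96.7, followed by JAG1 with 83.1, NOTCH2 with 54.5, HES1 with 47.2, HEY1 with 18.9, DLL1 with 10.4, JAG2 with 8.85 and NOTCH3 with 6.58. With 1 value per list, neighbours in these orders could not be told apart by any replicate spread.

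**Figure D3:**
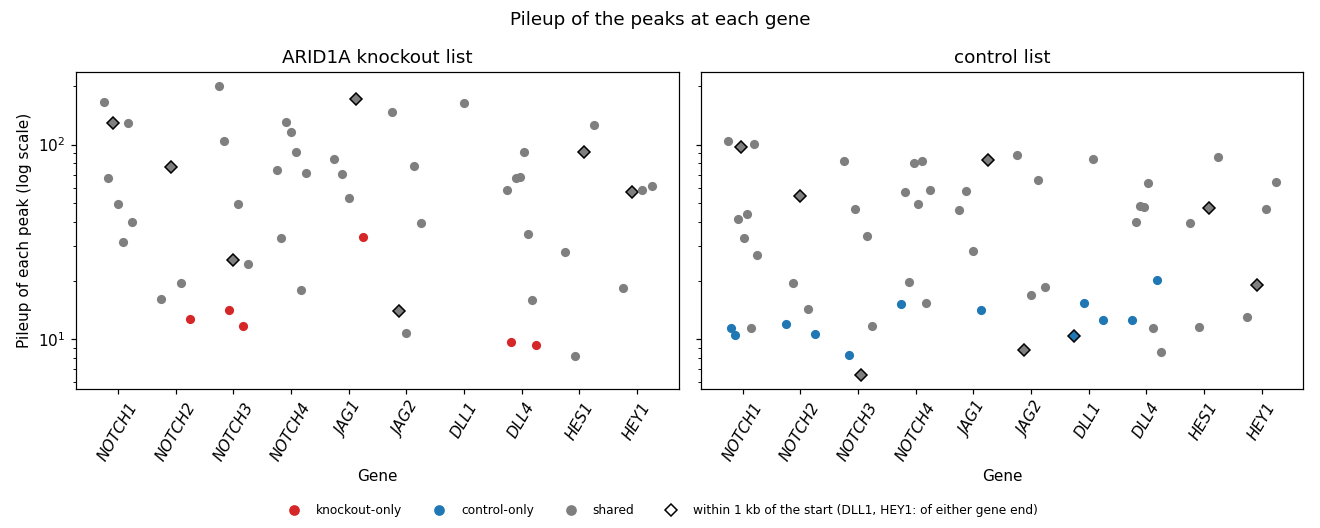
Pileup of each member peak on a log scale, by gene, with the ARID1A knockout list on the left and the control list on the right. Diamonds mark peaks within 1 kb of the start (of either gene end for DLL1 and HEY1), and the coloured genotype-only peaks lie in the lower part of both panels, between 9.31 and 33.6 in the knockout list and between 8.33 and 20.2 in the control list.

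Among the receptors, NOTCH1 (chr9:136494433-136546048, minus strand), which is frequently mutated in T-cell leukaemia, had 7 peaks in knockout cells and 10 in control cells. Its start lay in a peak of 2.78 kb in knockout cells (chr9:136544578-136547356, pileup 129, percentile 94.1) and of 2.82 kb in control cells (chr9:136544698-136547521, pileup 96.7, percentile 97.6). Both peaks covered the 250 bases before the start in full. Upstream of the gene lay the longest NOTCH1 peak of each list, of 9.11 kb in knockout cells, with its near edge 17.9 kb before the start (chr9:136563908-136573015, pileup 129), and of 5.46 kb in control cells, 21.4 kb before it (chr9:136567498-136572961, pileup 101). The knockout peak also took in a separate control peak of 577 bp with a pileup of 11.5, so that this domain was 1 peak in knockout cells and 2 in control cells. It was the only member region in which 1 list held several peaks for 1 of the other. The peak farthest downstream, with pileups of 166 in knockout cells and 105 in control cells, lay at the start of the neighbouring gene SEC16A, which encodes a scaffold of endoplasmic reticulum exit sites.

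The genotype-only peaks of NOTCH1 were both in the control list and both inside the gene. They lay 11.4 kb (chr9:136533613-136534678, 1066 bp, pileup 10.5) and 17.0 kb (chr9:136528729-136529030, 302 bp, pileup 11.4) after the start, at percentiles 13.4 and 17.1 of the control list. The nearest knockout peaks lay 4.23 kb and 9.88 kb away. Which exons or introns they touch was not looked up, since the gene table gave spans only.

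NOTCH2 (chr1:119911553-120069662, minus strand), the longest member with 158 kb, was sparsely acetylated, with 4 peaks in knockout cells and 5 in control cells. The start peak was nearly identical in place, with 885 bp in knockout cells (chr1:120068802-120069686, pileup 76.7) and 882 bp in control cells (chr1:120068810-120069691, pileup 54.5). It spanned the start in both lists, with its upstream edge 24 bases (knockout) and 29 bases (control) before the start. The other shared peaks, inside the gene and 17.9 kb (knockout) or 17.8 kb (control) upstream, had pileups of 16.1 and 19.5 in knockout cells and 19.5 and 14.4 in control cells. A knockout-only peak lay 42.0 kb upstream (chr1:120111651-120112988, 1338 bp, pileup 12.6, percentile 9.21). Control-only peaks lay 101 kb into the gene (chr1:119968331-119968910, 580 bp, pileup 12) and 21.0 kb upstream (chr1:120090636-120091541, 906 bp, pileup 10.7). The upstream one stood 2.04 kb from a knockout peak. NOTCH2 has near-identical partial copies elsewhere in the genome, and how reads mapping to several places were handled is not given in the sources used here.

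NOTCH3 (chr19:15159038-15200995, minus strand), a receptor known from vascular smooth muscle, had the weakest member start peak in the control list. The knockout peak spanned the start with 1299 bp (chr19:15199932-15201230, pileup 25.7, percentile 41.0, −log10 q 13.3). The control peak of 872 bp lay wholly inside it and began 0.127 kb after the start (chr19:15199997-15200868, pileup 6.58, percentile 0.584, −log10 q 1.43). The knockout peak covered 235 of the 250 bases before the start and the control peak 0. These bases (hg38, minus strand, chr19:15200996-15201245) are shown because peak edges differed across them between the lists. They held 78.0% G and C and 28 CG dinucleotides, against medians of 62.4% and 17 over 15811 promoters.
NOTCH3: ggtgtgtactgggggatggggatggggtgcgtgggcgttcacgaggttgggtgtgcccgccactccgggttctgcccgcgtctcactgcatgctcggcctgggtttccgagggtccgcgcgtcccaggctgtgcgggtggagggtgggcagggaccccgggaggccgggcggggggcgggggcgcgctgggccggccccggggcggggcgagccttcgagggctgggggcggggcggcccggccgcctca

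Keeping peaks with −log10 q of 5 or more, NOTCH3 had a start peak in the knockout list and none in the control list. At that level 6 of 43 member peaks of the knockout list were knockout-only, against 23.2% of 31598 peaks, and 1 of 38 of the control list was control-only, against 10.2% of 26745 peaks. The 2 lists are not cut alike by it: the median −log10 q was 15 in the knockout list and 10.6 in the control list. Elsewhere at NOTCH3 a knockout-only peak lay 5.05 kb into the gene (chr19:15195597-15195944, 348 bp, pileup 14.1). Another lay upstream of the gene, with 1048 bp and a pileup of 11.7. The control-only peak was long for its class but faint, with 2768 bp and a pileup of 8.33 (chr19:15113146-15115913), and lay over SYDE1 and HACL2. The strongest peaks of the window marked the starts of SYDE1 (pileup 199 in knockout cells and 82.4 in control cells) and HACL2 (104 and 46.8).

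NOTCH4 (chr6:32194843-32224067, minus strand), a receptor gene of endothelial cells in the dense class III region of the major histocompatibility complex, had no peak at its own start in either list. The 250 bases before its start (hg38, minus strand, chr6:32224068-32224317) are shown as a member promoter under no peak in either list. They held 58.0% G and C and 3 CG dinucleotides, the fewest of the 8 member promoters in the table. The capitals mark a match to TGANTCA, the motif of AP-1, 18 to 12 bases before the start.
NOTCH4: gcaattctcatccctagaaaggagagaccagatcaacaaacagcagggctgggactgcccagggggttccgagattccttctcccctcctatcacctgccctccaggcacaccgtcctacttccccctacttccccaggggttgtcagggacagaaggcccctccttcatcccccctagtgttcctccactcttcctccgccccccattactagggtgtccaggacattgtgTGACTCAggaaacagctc

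The acetylation counted to NOTCH4 lay mostly at the starts of its neighbours. Of its 7 knockout peaks, those at the starts of PRRT1 and PPT2, of AGPAT1 and RNF5, of PBX2 and of GPSM3 had pileups from 73.8 to 130. The control peak at the starts of PBX2, a homeodomain factor gene, and AGER, the receptor for advanced glycation end products, was the longest of all member peaks, with 10.2 kb (chr6:32183514-32193694, pileup 49.2). In knockout cells the peak at the PBX2 start was 5.14 kb long (chr6:32188534-32193670, pileup 116) and covered 50.5% of the control peak. This knockout peak did not come within 1 kb of the AGER start. All 7 knockout peaks were shared. The only genotype-only peak was a control peak of 479 bp, 77.4 kb beyond the start in the direction of transcription (chr6:32146153-32146631, pileup 15.3, −log10 q 1.80).

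Among the ligands, JAG1 (chr20:10637684-10673999, minus strand) had the strongest start peak of the 10 members in the knockout list. The peak was 4.72 kb long in knockout cells (chr20:10670940-10675660, pileup 171, percentile 98.2) and 4.67 kb long in control cells (chr20:10670829-10675498, pileup 83.1, percentile 95.4). Away from the start, 3 shared peaks lay between 68.0 kb and 80.3 kb beyond it, within SLX4IP, a gene of telomere maintenance that neighbours JAG1. Each of the 3 was longer in knockout cells, with 4.92, 3.39 and 2.36 kb, against 3.79, 1.53 and 1.45 kb in control cells, counted from the far peak towards JAG1. All 4 shared regions of JAG1 were longer in knockout cells, as were 25 of the 46 shared regions of the 10 members, against 50.6% of 31981 shared regions overall.

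JAG1 had 1 genotype-only peak of each kind. The knockout-only peak lay 32.2 kb upstream (chr20:10706235-10706778, 544 bp, pileup 33.6, percentile 51.8), and the nearest control peak was 23.8 kb away. It had the highest pileup and −log10 q (14.2) of the 6 knockout-only peaks at the members. The control-only peak lay 12.9 kb into the gene (chr20:10660584-10661105, 522 bp, pileup 14.2, percentile 28.1), 9.84 kb from a knockout peak.

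JAG2 (chr14:105140995-105168776, minus strand) had 5 peaks in each list, all shared, and a faint start peak in both. The start peak was 1144 bp long in knockout cells (chr14:105167900-105169043, pileup 13.9, percentile 12.9, −log10 q 3.64). In control cells it was 342 bp long and began 0.492 kb after the start (chr14:105167943-105168284, pileup 8.85, percentile 6.31, −log10 q 1.62). Neither passed a −log10 q of 5. The 250 bases before the start (hg38, minus strand, chr14:105168777-105169026), all under the knockout peak and none under the control peak, are shown for the same reason as those of NOTCH3. With 81.6% G and C and 38 CG dinucleotides they were the richest of the 8 in both.
JAG2: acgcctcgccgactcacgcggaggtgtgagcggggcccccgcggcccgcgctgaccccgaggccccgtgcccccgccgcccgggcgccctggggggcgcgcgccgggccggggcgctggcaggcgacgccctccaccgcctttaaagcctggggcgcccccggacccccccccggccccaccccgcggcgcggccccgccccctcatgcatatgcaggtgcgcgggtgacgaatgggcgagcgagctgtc

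The stronger peaks counted to JAG2 lay outside it. The strongest, 74.2 kb (knockout) or 74.3 kb (control) beyond the start, was 3.77 kb long with a pileup of 148 in knockout cells (chr14:105090795-105094567) and 3.75 kb long with a pileup of 88.5 in control cells (chr14:105090720-105094473). It touched no protein-coding gene. Another marked the start of NUDT14, a nucleoside diphosphate sugar hydrolase gene, with pileups of 77.3 in knockout cells and 65.9 in control cells. All 5 shared regions of JAG2 were longer in knockout cells, against 50.6% of 31981 shared regions over the lists. Other members went the other way. Control peaks covered more in 5 of 7 shared regions at NOTCH1, 5 of 7 at NOTCH4, 4 of 6 at DLL4 and 3 of 4 at HEY1. These counts were not tested.

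DLL1 (chr6:170282206-170291078), a ligand of developmental patterning, was the member with the fewest knockout peaks, 1, against 4 in control cells. The shared peak lay 14.8 kb (knockout) or 14.9 kb (control) beyond the gene end with the higher coordinate, within FAM120B. It was strong in both lists, with 1954 bp and a pileup of 163 in knockout cells (chr6:170305908-170307861, percentile 97.7) and 1932 bp and a pileup of 84.5 in control cells (chr6:170306014-170307945, percentile 95.6). The 3 other control peaks were control-only and weak. One lay inside the gene, 0.426 kb from its higher-coordinate end (chr6:170290393-170290652, 260 bp, pileup 10.4, −log10 q 1.89). The others lay 4.73 kb (chr6:170295808-170296198, 391 bp, pileup 15.3) and 23.9 kb (chr6:170314993-170316189, 1197 bp, pileup 12.6) beyond that end. None of the 3 reached a −log10 q of 5, so above that level DLL1 had the same single shared peak in each list.

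DLL4 (chr15:40929340-40939073, plus strand), a ligand of sprouting blood vessels, had no peak touching the gene in either list and 8 peaks around it in each. It had the most genotype-only peaks of the members, 2 in the knockout list and 2 in the control list. The knockout-only peaks were among the weakest of that list, with pileups of 9.65 (chr15:40902911-40903257, 347 bp, percentile 2.09) and 9.31 (chr15:40985419-40985741, 323 bp, percentile 1.54). The first stood 0.649 kb from a control peak. The control-only peaks had pileups of 12.6 (chr15:40877780-40879513, 1734 bp, 49.8 kb upstream) and 20.2 (chr15:40971382-40972370, 989 bp, 42.0 kb after the start). The last was the only control-only peak at the members whose −log10 q reached 5 (9.05).

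The shared peaks around DLL4 differed in length, and 2 of the 6 shared regions were longer in knockout cells and 4 in control cells. At the start of CHAC1, a glutathione-degrading enzyme gene of the stress response, the peak was 1.71 kb long in knockout cells (chr15:40952341-40954050, pileup 92.0) and 6.79 kb long in control cells (chr15:40952071-40958857, pileup 63.2). Knockout peaks covered 25.2% of that control peak. About 21 kb before the DLL4 start, the peak was 2.08 kb long in knockout cells (chr15:40905571-40907650, pileup 67.3) and 3.94 kb long in control cells (chr15:40903906-40907849, pileup 48.1). The peak 11.8 kb (knockout) or 11.7 kb (control) after the start had pileups of 68.2 in knockout cells and 47.6 in control cells. By summed kb of peaks in the 2 lists, the genes most like DLL4 were LETM1, with 10.3 kb in knockout cells and 19.2 kb in control cells, and NUP88 and RPAIN, each with 10.3 kb in knockout cells and 19.4 kb in control cells. The distance was the summed absolute log2 ratio of kb plus 1 over both lists, and came to 0.0238, 0.0245 and 0.0245.

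Both target genes carried shared peaks alone, but with 0 of 8 peaks genotype-only in each list the interval ran from 0 to 36.9%. It contained the shares of the whole lists (22.4% knockout-only and 18% control-only), so the targets could not be told from the background. HES1 (chr3:194136148-194138732, plus strand), a repressor that is the classical direct Notch target, had 4 peaks in each list. One peak covered the start, with 4.50 kb in knockout cells (chr3:194133651-194138146, pileup 91.2, percentile 85.3) and 4.17 kb in control cells (chr3:194133880-194138051, pileup 47.2, percentile 78.6). A second, 3.78 kb (knockout) or 4.41 kb (control) after the start and so beyond the short gene, had the higher pileup in both lists, 126 in knockout cells (chr3:194139927-194142982) and 86.7 in control cells (chr3:194140560-194143049). Knockout peaks covered 97.9% of the control peak length at HES1 and control peaks 90.0% of the knockout peak length.

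The 250 bases before the HES1 start (hg38, plus strand, chr3:194135898-194136147), under a peak in both lists, are shown because RBPJ, the DNA-binding partner of the Notch intracellular domain, is known to act there. The capitals mark GTGGGAA, 85 to 79 bases before the start, and TGGGAA, 70 to 65 bases before it, both on the printed strand.
HES1: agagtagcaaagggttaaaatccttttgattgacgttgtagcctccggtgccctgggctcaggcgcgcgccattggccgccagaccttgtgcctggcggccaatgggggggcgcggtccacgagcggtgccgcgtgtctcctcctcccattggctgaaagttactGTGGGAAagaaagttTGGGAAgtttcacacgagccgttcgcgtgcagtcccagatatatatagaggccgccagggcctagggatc

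HES1 was the only one of the 8 member promoters in the table to hold either form of the RBPJ motif. Both strands of the 250 bases before each start were searched, and each match to the longer form, GTGGGAA, is also one to the shorter form, which lacks the first base. Over 15811 promoters of protein-coding genes, 5.26% held the longer and 20.2% the shorter form. The AP-1 motif stood in NOTCH4 alone of the 8, against 5.05% overall. None of the 8 held the TEAD motif, spelled GGAATG, against 10.1% of all promoters. None held the E-box, spelled CACGTG, against 7.83%. The exact spelling TATAAA of the TATA box was likewise in none, against 9.25%, and variant spellings of it were not searched. Such matches describe letters and show no binding. The sequences are those of RefSeq on GRCh38.p14, and DLL1 and HEY1 have no entry in the table.

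HEY1 (chr8:79764010-79767767), a related repressor, also had 4 shared peaks in each list. The peak at its higher-coordinate end was 2.79 kb long in knockout cells (chr8:79767424-79770209, pileup 57.2, percentile 70.1) and 2.88 kb long in control cells (chr8:79767297-79770171, pileup 18.9, percentile 42.0). A peak 25.2 kb (knockout) or 23.8 kb (control) from that end was the strongest of the gene in each list, with 2.91 kb and a pileup of 61.3 in knockout cells (chr8:79792995-79795902) and 5.06 kb and a pileup of 64.1 in control cells (chr8:79791525-79796581). The peak between them had pileups of 58.5 in knockout cells and 46.8 in control cells. In the control list the end peak thus stood well below the 2 distal peaks, and in the knockout list the 3 lay close together.

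Summed over the members, peaks covered 113 kb in the knockout list and 129 kb in the control list. JAG1 and JAG2 had more covered sequence in knockout cells, with 15.9 kb against 12 kb in control cells and 8.06 kb against 6.31 kb in control cells (ratios of 1.32 and 1.28). DLL1 and DLL4 had less, with 1.95 kb against 3.78 kb in control cells and 10.4 kb against 19.2 kb in control cells (ratios of 0.516 and 0.542), followed by NOTCH4 with 18.2 kb against 26.4 kb in control cells (0.689). The ratios of the other members lay between 0.799 for HEY1 and 1.09 for HES1. These lengths include peaks at neighbouring genes. The JAG1 start peak was 4.72 kb long in knockout cells and 4.67 kb in control cells, while the 3 peaks within SLX4IP were each longer in knockout cells. Near DLL4 the peak at the CHAC1 start was 1.71 kb long in knockout cells and 6.79 kb in control cells. Near NOTCH4 the peak at the PBX2 start was 5.14 kb and 10.2 kb long. Taking 1.5 times as the limit, 0 of the 10 members lay above it and 2, DLL1 and DLL4, below it, where 9.25% and 12.1% of 17126 protein-coding genes with peaks in both lists did so. DLL1 fell below the limit through its 3 weak control-only peaks, since the peaks with −log10 q of 5 or more covered 1.95 kb in knockout cells and 1.93 kb in control cells there. The median ratio was 0.921 over the members and 0.939 over those genes, of which the middle 90% lay between 0.548 and 1.81. A peak's length is set in part by how the peak caller merges neighbouring stretches, which was not varied.

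**Figure D4:**
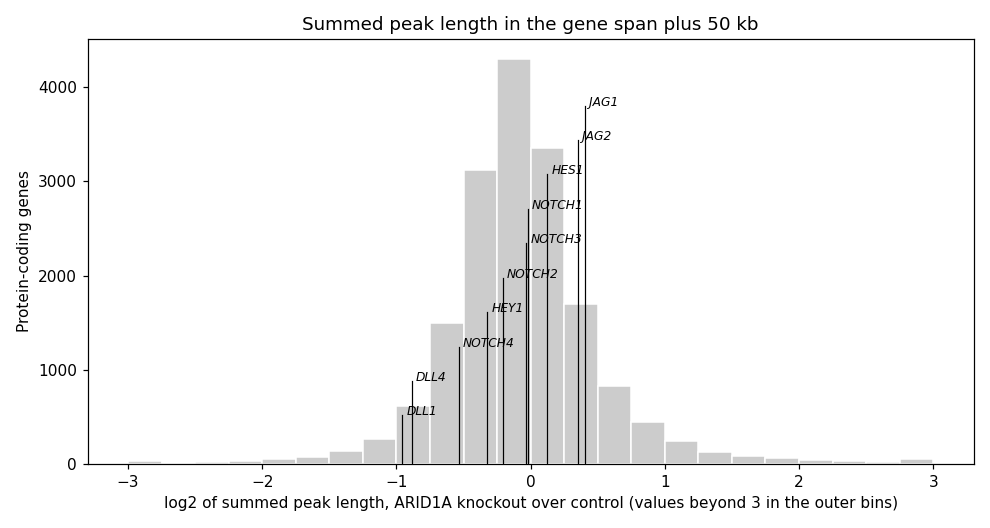
Histogram of the log2 ratio of summed peak length, ARID1A knockout over control, in the gene span plus 50 kb for 17126 protein-coding genes, with the 10 members marked by lines of arbitrary height. DLL1 (-0.95) and DLL4 (-0.88) stand at the low side and JAG1 (0.41) and JAG2 (0.35) at the high side, and DLL1 and DLL4 alone lie outside the middle 90% of genes, just below it.

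The other genes of the pathway, 42 chosen by role, mostly had peaks in both lists as well. Their windows held 293 knockout peaks, of which 49 were knockout-only (16.7%, against 22.4% of all knockout peaks and 19.8% of those near genes). They held 268 control peaks, of which 31 were control-only (11.6%, against 18% and 17.3%). At the start (either gene end for 8 of them), 34 had a peak in both lists, 0 in the knockout list alone, 1 in the control list alone and 7 in neither, where 61.9%, 1.26%, 1.49% and 35.3% of the genes with a known start did so. The exception was NEURL1, a ubiquitin ligase gene known for ligand endocytosis, whose control peak (1134 bp, pileup 18.9, −log10 q 5.42) overlapped a knockout peak that stopped short of the window. All 8 protease genes, such as ADAM10 and ADAM17, had a start peak in both lists.

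At the genes of the nuclear complex, 25 of 104 knockout peaks were knockout-only (24.0%, against 22.4% of all knockout peaks) and 14 of 89 control peaks were control-only (15.7%, against 18% of all control peaks), so both shares were near the background. MAML2, a Mastermind coactivator gene, had 8 knockout-only of 28 knockout peaks and 0 control-only of 18 control peaks. MAML3, another Mastermind coactivator gene, had 5 knockout-only of 16 knockout peaks and 4 control-only of 15 control peaks, and RBPJ 2 of 10 knockout peaks and 4 of 12 control peaks. APH1B, a gamma-secretase subunit gene, had 4 knockout-only peaks of 8 and FBXW7, a ubiquitin ligase gene that marks Notch for degradation, 3 of 6, and neither had a control-only peak among 4 and 3 control peaks. DLK2, a Delta-like gene, had 4 control-only peaks of 9 and SPEN, a corepressor gene, 3 of 14, with 0 and 1 knockout-only peaks. These counts were not tested.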

How the data were processed

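The data were 2 peak lists, 1 for ARID1A knockout and 1 for control MDA-MB-231 cells, each of immunoprecipitate against input. The submitters' processing notes name Bowtie2 (version 2.3.5.1), the build hg38 and MACS2 (version 2.2.6). Options, library depths and whether replicates were pooled are not given in the sources used here; peak names begin with B-2 in the knockout list and A-1 in the control list, which the labels do not explain. Per the file headers, the authors deposited for each peak its length, a coverage signal called pileup, −log10 values of p and of q (the p-value was not used), and the fold enrichment over background (a ratio). All are the authors' values. Positions are 1-based. The lowest −log10 q was 1.00 in the knockout list and 1.01 in the control list.

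Peaks touching a gene span plus 50 kb (RefSeq, GRCh38.p14, the assembly of hg38) went to the closest member. The other list decided the class, with a minimum overlap of 1 bp. Starts came from the RefSeq promoter table, which holds 8 of the 10 members, with 1 start per gene. Software was Python 3.11.15, scipy 1.17.1, pandas 2.3.3 and numpy 2.4.6, and overlaps were checked with bedtools 2.31.1 and tested on simulated peaks; figures used matplotlib 3.10.9. Intervals are exact (Clopper-Pearson, 95%). Peaks outside chromosomes 1 to 22 and X (8 knockout, 6 control) were left out.

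The members and the pathway list were chosen with earlier results of these data known. Peaks printed singly were all genotype-only peaks, the start peaks and the longest or strongest peaks, and other pathway genes were named for a start peak in 1 list alone or 3 or more genotype-only peaks of 1 genotype, except that some items are not reported here. The rule covered the longest peaks but not the strongest; these, other shared peaks and the protease examples were chosen after their values were seen. With 1 list per genotype no replicate could be left out. Other overlaps, thresholds and windows were tried, and a split of each list at its median pileup was added after seeing the data.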

Additional observations from a re-analysis of the deposited data

How the results depend on the processing

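Of 42 recomputed values (8 results under other overlaps, thresholds and windows), 30 stayed within 1.5 times the reported value and 12 did not. The knockout-only count of 6 came to 1 with windows of 25 kb and 19 with windows of 100 kb, and the control-only count of 12 came to 8 and 15. With only the upper 50% of each list by fold enrichment classed, 0 knockout-only and 0 control-only peaks were left. With a −log10 q of at least 5 in both lists, control-only peaks came to 1 of 38 (2.63%, against 10.2% of that list), while knockout-only peaks came to 6 of 43 (14%, against 23.2%). Only the JAG1 peak belonged to both sets of 6, since the other 5 arose where a weaker control partner dropped out, at NOTCH3 (2), DLL4 (2) and HEY1 (1). Shared knockout peaks came to 30 and 73, and knockout length to 69.5 kb and 179 kb, with windows of 25 and 100 kb. Shared control peaks came to 74 with 100 kb. Control members with a start peak fell to 5, against 8 as reported, with that q cut and with the start base alone. No paired analysis was possible because each genotype had 1 list. Depth was unknown, so an uncalled weak peak does not show absent acetylation.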

Other observations

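Between 50 and 100 kb from the gene spans, outside the windows used above, 13 of 40 knockout peaks were knockout-only (32.5%, against 22.4% of all knockout peaks) and 3 of 30 control peaks were control-only (10%, against 18% of all control peaks). Between 25 and 50 kb the counts were 5 of 21 knockout peaks and 4 of 19 control peaks. At up to 25 kb without touching the span they were 0 of 20 and 3 of 25, and touching it 1 of 11 and 5 of 15. These distances were chosen after the values with other windows had been seen, and no difference was tested.

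JAG1 held 6 of the 13, among 10 knockout peaks at that distance, so the share beyond 50 kb rests largely on this gene. Of these, 5 lay on the downstream side between 57.8 and 83.7 kb from the gene (chr20:10553689-10579862 from the first to the last), and their lengths were 252, 897, 1796, 1889 and 1509 bp with pileups of 13.2, 23.2, 30.8, 32.5 and 22.1. Control peaks lay 2.00 to 15.6 kb away from them. HEY1 held 3, with pileups from 14.4 to 18.1 and the nearest control peak 10.9 to 93.9 kb away. DLL1 held 2, and the stronger was the strongest knockout-only peak within 100 kb of any member, with 2929 bp and a pileup of 61.6 (chr6:170222609-170225537, percentile 72.5, −log10 q 43.7), 56.7 kb from the gene span and 64.9 kb from the nearest control peak. Of the 3 control-only peaks at that distance, the longest was 3855 bp with a pileup of 17.5, 78.9 kb from NOTCH3 (chr19:15279861-15283715).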
